A study of Mus musculus with 6 samples.

Results

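The 9 membrane adenylyl cyclases, Adcy1 to Adcy9, and Gnas, which encodes the stimulatory G protein alpha subunit Gsα, were followed in choroid plexus (ChP) TRAP-seq. They were selected by gene symbol. All 10 genes were among the 24354 gene names of the FPKM table, and 4 of them (Adcy5, Adcy6, Adcy9 and Gnas) were among the 11601 genes with a mean above 1 FPKM that were tested. TRAP purifies ribosomes carrying a tagged subunit, with the mRNA on them, so that the values describe ribosome-bound transcripts. All mice carried FoxJ1:cre and the bacTRAP transgene (EGFP:L10a), so that the Foxj1 promoter decided which cells bore the tag. There were 3 samples of adult ChP, labelled 60 days old (P60), and 3 samples of embryonic ChP at E16.5, with no treatment in either group. The study's methods describe each sample as lateral ventricle ChP pooled from 3 mice, or from 3 litters of embryos. The series text names 3 mice for each age, which leaves the number of animals behind a replicate unsettled, and p-values measure the spread between these samples. Values of a group are given in the order of replicates 1, 2 and 3.

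Membrane adenylyl cyclases convert ATP to cyclic AMP (cAMP) when Gsα, released by a hormone-bound receptor, binds to them, and inhibitory G alpha subunits oppose this on several of them. Cyclic AMP then acts through protein kinase A (PKA), exchange factors and gated channels until phosphodiesterases break it down. In ChP epithelium this pathway is known for its link to ion transport and the secretion of cerebrospinal fluid. The cyclases fall into classes by what else governs them: calcium with calmodulin stimulates Adcy1, Adcy3 and Adcy8, G beta-gamma dimers enhance Adcy2, Adcy4 and Adcy7, calcium and inhibitory G alpha subunits restrain Adcy5 and Adcy6, and Adcy9 is the least related of the family.

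Of 7 markers of ChP epithelium, 3 had every adult value above every E16.5 value, 3 had every adult value below, and 1 overlapped. Folr1, the folate receptor of ChP epithelium, lay between 465 and 707 FPKM in adults and between 827 and 1048 FPKM at E16.5, and the chloride channel protein gene Clic6 between 559 and 810 FPKM across all 6 samples. Ttr, at 20922 to 31302 FPKM in adults, was listed at 0 throughout the E16.5 group. Kl, which encodes klotho, was at 503 to 628 against 6.03 to 8.94 FPKM, and the potassium channel gene Kcnj13 at 544 to 1054 against 80.4 to 112 FPKM. The transcription factor gene Otx2 (150 to 184 against 340 to 426 FPKM) and the water channel gene Aqp1 (68.6 to 168 against 226 to 262 FPKM) were, like Folr1, lower in adults in every sample. An exact 0 can be a failed estimate, and no fold change is given against a group listed at 0 throughout. Summed markers of red blood cells were at 54.1 to 324 FPKM at E16.5 and 0 to 6.49 FPKM in adults (0 of 4 measured markers had every adult value above every E16.5 value, and 3 had every adult value below), and those of mesenchyme at 57.7 to 69.3 against 13.3 to 21.9 FPKM (3 of 6 below). The ranges of mural, endothelial, macrophage, neuronal and glial sums overlapped between the ages. The adult libraries were shallower. By the FPKM that a single read is worth, adult replicate 3 was the shallowest, the other adult libraries had 1.26 and 2.85 times its depth, and the deepest E16.5 library had 5.09 times its depth. Between 10.3% and 36.4% of the genes tested were listed at 0 in an adult sample, against 3.68% to 4.02% at E16.5. In bulk samples, fewer cells of a type and less RNA per cell cannot be told apart.

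Gnas was by far the most abundant member. Its level was 909, 1143 and 756 FPKM in adults, and 1319, 1147 and 1010 FPKM at E16.5. The ages overlapped, and Gnas ranked between 12 and 29 among all genes by level in every sample. On log2(FPKM + 1), adult minus E16.5, the change was -0.32 (SE 0.24, 95% interval -0.89 to 0.25) and did not pass the limma test (adjusted p = 0.397). An exact two-sided permutation test of the 3 adult against the 3 E16.5 values gave p = 0.2, where 0.1 is the smallest p possible. The direction depended on the scaling between samples: the change was 0.023 with median-ratio scaling and 0.21 after quantile normalization, and -1.15 (adjusted p = 0.0345, limma) when each sample was rescaled to the same sum. That last scaling called 27.9% of all genes tested higher at E16.5. Mir6236 alone held 51.0%, 32.7% and 51.7% of the summed FPKM in adults, and 13.3%, 13.6% and 15.0% at E16.5. Rescaled to the same sum without Mir6236, the Gnas change was -0.48 (adjusted p = 0.192, limma).

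The Gnas row joins several products. In GENCODE M21, on mm10, Gnas lies on the plus strand at chr2:174284320-174346744 with 24 annotated transcripts, which begin at alternative first exons, and the imprinted locus also gives the neuroendocrine secretory protein Nesp55 and the extra-large form XLαs. The table has 1 value per symbol and does not separate them. Nespas, an antisense RNA at chr2:174281237-174295436, was listed at 0 in all 6 samples. The strand used in counting is not given in the sources used here, so that reads from overlapping antisense transcripts cannot be told apart. The sequence differs between the most upstream start and the Gsα start. Both windows printed here are from the RefSeq promoter table (GRCm38.p6, 300 bases around a start, most of them upstream, 5′ to 3′). They are shown because the single Gnas value sums over both. Capitals mark the CRE core, which is TGACG or its reverse complement CGTCA and is found in 20.8% of all 32851 promoters of that table.
Gnas start 174284320, chr2:174284070-174284369, plus strand: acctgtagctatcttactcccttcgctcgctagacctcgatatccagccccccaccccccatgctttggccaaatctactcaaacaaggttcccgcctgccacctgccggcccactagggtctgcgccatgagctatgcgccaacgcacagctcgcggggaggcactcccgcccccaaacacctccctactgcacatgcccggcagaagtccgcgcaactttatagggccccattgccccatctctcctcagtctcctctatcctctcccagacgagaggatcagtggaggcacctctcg
Gnas start 174330006, chr2:174329756-174330055, plus strand: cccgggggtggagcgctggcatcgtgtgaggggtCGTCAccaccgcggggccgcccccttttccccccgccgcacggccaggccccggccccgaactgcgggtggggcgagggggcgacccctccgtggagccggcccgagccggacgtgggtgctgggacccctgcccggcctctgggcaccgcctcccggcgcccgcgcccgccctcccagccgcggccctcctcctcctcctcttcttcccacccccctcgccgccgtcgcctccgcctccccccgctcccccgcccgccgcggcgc
The upstream window held no CRE core and 16 CpG dinucleotides, and the downstream window, at the Gsα start, held CGTCA 216 bases before the start and 40 CpG. Gnas also had overlapping windows at starts 174327749 and 174327768, not printed here, which held the same CGTCA 38 and 57 bases before their starts. The median over all promoters was 7 CpG.

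Adcy6 was the most abundant cyclase by mean at both ages. It encodes a calcium-inhibited cyclase of broad distribution. Its level was 19.9, 26.5 and 19.4 FPKM in adults, and 13.3, 14.1 and 8.87 FPKM at E16.5. Every adult value lay above every E16.5 value, and the mean was 21.9 ± 3.97 against 12.1 ± 2.83 FPKM (SD, n = 3). The change was 0.82 on log2(FPKM + 1), with an SE of 0.43 and a 95% interval of -0.18 to 1.82. It did not pass the limma test (adjusted p = 0.232), and the exact permutation p was 0.1, the smallest possible. When each sample was rescaled to the same sum, the change was 0.040 and the ages overlapped. Adcy6 lies on the minus strand at chr15:98589973-98610076.

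Adcy5, the calcium-inhibited cyclase known from heart and striatum, had the largest change of the tested members. Its level was 8.61, 9.95 and 32.5 FPKM in adults, and 1.79, 5.03 and 1.67 FPKM at E16.5. All adult values lay above all E16.5 values, and adult replicate 3 stood far above the other adult samples. The mean was 17.0 ± 13.4 in adults and 2.83 ± 1.91 FPKM at E16.5 (SD, n = 3), 6.01 times as high in adults. On the log2 scale the change was 2.10 (SE 0.73, 95% interval 0.39 to 3.80). The unadjusted limma p was 0.0221 and the adjusted p 0.103, so that Adcy5 did not pass at 0.05, and the exact permutation p was 0.1, the smallest possible. Without adult replicate 3 the change was 1.53 (adjusted p = 0.152, limma), and the ages still did not overlap. When each sample was rescaled to the same sum the change was 1.43 and the ages overlapped. That library also had the highest value of the myelin gene Mbp (58.7 FPKM, against 1.05 to 6.30 in the other 5 samples). Chosen after their values were seen, Gnal, which encodes the olfactory and striatal Gs-like alpha subunit, was at 14.2 FPKM in adult replicate 3 against at most 4.75 FPKM elsewhere, and the phosphodiesterase gene Pde10a at 9.68 against at most 3.12 FPKM. Their part in the Adcy5 level was not tested.

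Adcy9 was the third cyclase by mean at each age. Its level was 0.723, 3.57 and 7.09 FPKM in adults, and 1.49, 1.98 and 1.58 FPKM at E16.5. The adult samples spread on both sides of the E16.5 samples, with replicate 1 below them all. The change was 0.58 (SE 0.75, 95% interval -1.16 to 2.31, adjusted p = 0.617, limma). It was 1.18 without adult replicate 1, when every adult value lay above every E16.5 value, and 0.068 without adult replicate 3 (adjusted p = 0.280 and 0.953, limma). In read equivalents, the FPKM divided by the worth of a single read in the longest transcript, these were 13, 150 and 105 reads in the adult samples and 88, 149 and 110 at E16.5.

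Adcy5 and Adcy9 share chromosome 16. Their RefSeq promoter windows are given because both belong to the 3 cyclases tested and differ in the CRE core, while for Adcy6 and Adcy8 the table holds no entry. Conventions are as for Gnas.
Adcy5 start 35154864, chr16:35154614-35154913, plus strand: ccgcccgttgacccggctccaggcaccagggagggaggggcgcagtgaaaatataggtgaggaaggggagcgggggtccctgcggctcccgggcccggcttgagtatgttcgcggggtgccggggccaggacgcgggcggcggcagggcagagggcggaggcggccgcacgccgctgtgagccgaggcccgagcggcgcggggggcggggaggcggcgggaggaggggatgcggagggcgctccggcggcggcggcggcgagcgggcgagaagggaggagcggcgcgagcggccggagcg
Adcy9 start 4420498, chr16:4420449-4420748, minus strand: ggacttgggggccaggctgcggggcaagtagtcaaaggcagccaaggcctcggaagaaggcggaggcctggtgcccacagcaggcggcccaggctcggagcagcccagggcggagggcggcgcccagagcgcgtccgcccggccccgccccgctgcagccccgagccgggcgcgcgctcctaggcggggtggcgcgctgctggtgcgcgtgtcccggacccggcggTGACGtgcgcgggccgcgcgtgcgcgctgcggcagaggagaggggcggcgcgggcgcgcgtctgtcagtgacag
The Adcy9 window held TGACG 24 bases before the start, and the Adcy5 window held no CRE core. They held 42 and 44 CpG, and 78.3% and 79.0% of their bases were G or C, where the median promoter has 52.7%. Of the 8 members with a promoter entry, 3 (Gnas, Adcy7 and Adcy9) had a CRE core in at least 1 window. Some members, among them Gnas and Adcy7, had more than 1 window. This count of genes therefore cannot be set against the 20.8% of single promoters. None of the windows held the full CRE (TGACGTCA, found in 1.79% of promoters, which includes the core on both strands), a FOX site (TGTTTAC, 3.65%) or an OTX site (TAATCC, 7.06%), each searched on both strands.

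**Figure D1:**
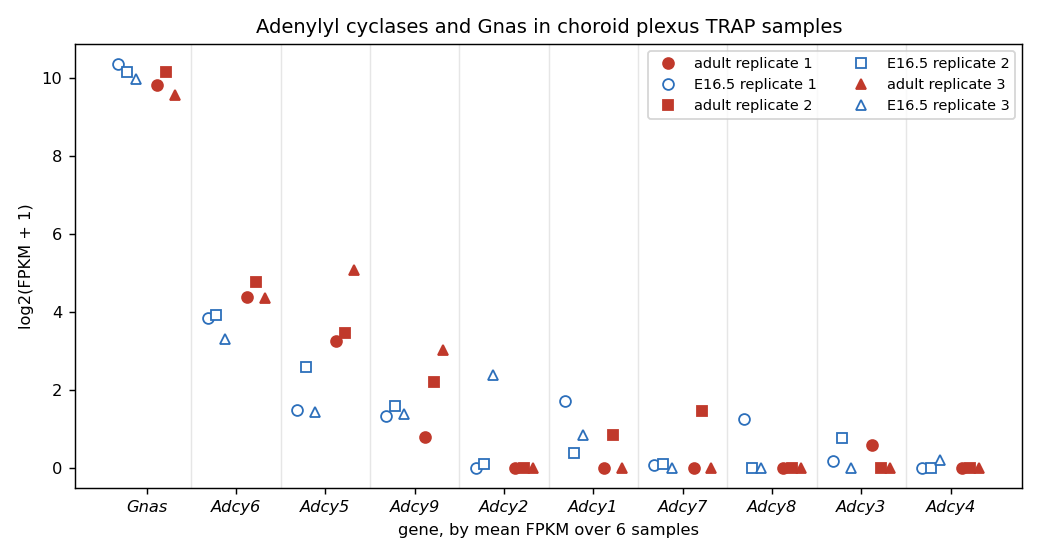
Levels of the 10 members on log2(FPKM + 1) in every sample, ordered by mean, with E16.5 as open blue and adult as filled red symbols and a symbol shape per replicate. Gnas stands above the cyclases in every sample, the adult points of Adcy6 and Adcy5 lie above their E16.5 points, and from Adcy2 rightwards most points are at 0.

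The other 6 cyclases had a mean at or below 1 FPKM and were not tested with limma. Each drew most of its signal from a single library, which held between 53.0% and 100% of its 6-sample sum. Adcy2, a G beta-gamma-enhanced cyclase, was listed at 0 in the adult samples and was at 0, 0.0630 and 4.23 FPKM at E16.5. Adcy8, calcium-stimulated and best known from neurons, was at 1.39 FPKM in E16.5 replicate 1 and listed at 0 in the other 5 samples. Adcy1, also calcium-stimulated and neuronal, was at 0, 0.785 and 0 FPKM in adults and at 2.30, 0.288 and 0.793 FPKM at E16.5. Both neuronal cyclases thus had their highest value in E16.5 replicate 1, the library with the highest summed neuronal markers (81.2 FPKM, with Tubb3 at 36.2 and Stmn2 at 25.3 FPKM). Their part in the Adcy1 and Adcy8 values was not tested.

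Adcy7, a G beta-gamma-enhanced cyclase of blood cells, was at 0, 1.73 and 0 FPKM in adults and at 0.0555, 0.0661 and 0 FPKM at E16.5. Adcy3, the cyclase of olfactory neurons and primary cilia, was at 0.486, 0 and 0 FPKM in adults and at 0.135, 0.701 and 0 FPKM at E16.5. Adcy4 was listed at 0 in 5 samples and at 0.149 FPKM in E16.5 replicate 3, a value worth 9 read equivalents. Adult replicate 2 had the highest Cldn5, an endothelial tight junction gene (9.48 FPKM, and 0 in all other samples). E16.5 replicate 3 had the highest Kdr, the endothelial VEGF receptor (36.7 FPKM). The endothelial markers did not move together. Pecam1 was also highest in adult replicate 2. Plvap and Tek were listed at 0 there, and Kdr (7.75 FPKM) lay below every E16.5 value. Cdh5 and Plvap were also highest in E16.5 replicate 3. Pecam1 and Cldn5 were listed at 0 in that library, and Tek was below its level in E16.5 replicate 1. The part of endothelial cells in the Adcy4 and Adcy7 values was not tested. The exact permutation p of the 6 low cyclases lay between 0.2 and 1. Adcy10, the soluble cyclase that bicarbonate stimulates, was listed at 0 in all 6 samples.

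The order of mean levels was Gnas, Adcy6, Adcy5 and Adcy9 at both ages. Gnas and Adcy6 did not overlap at either age. In adults Adcy6 and Adcy5 overlapped and Adcy5 and Adcy9 did not, while at E16.5 Adcy6 and Adcy5 did not overlap and Adcy5 and Adcy9 did. From Adcy9 down, no neighbours in the order were separated at either age.

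Of the 4 tested members, 0 were called higher in adults and 0 higher at E16.5 by limma, where 2.12% and 8.83% of all 11601 genes tested were called in these directions. At an unadjusted p under 0.05, 1 member (Adcy5) was higher in adults and 0 at E16.5, against 5.34% and 25.9% of all genes tested. Every adult value lay above every E16.5 value in 2 members (Adcy5 and Adcy6), against 7.39% of all genes tested, and below in 0 members, against 31.0%. The median of all genes tested was -0.86, so that the typical gene was lower in the adult samples as deposited. Relative to it, the changes were 2.95 for Adcy5, 1.67 for Adcy6, 1.43 for Adcy9 and 0.54 for Gnas. Among the 6562 genes above 0 in every sample, which include these 4 members, the median was nearer to 0, at -0.38. The relative changes thus depend on which genes set the median. With 4 members tested, the counts and the background shares are given as a description.

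**Figure D2:**
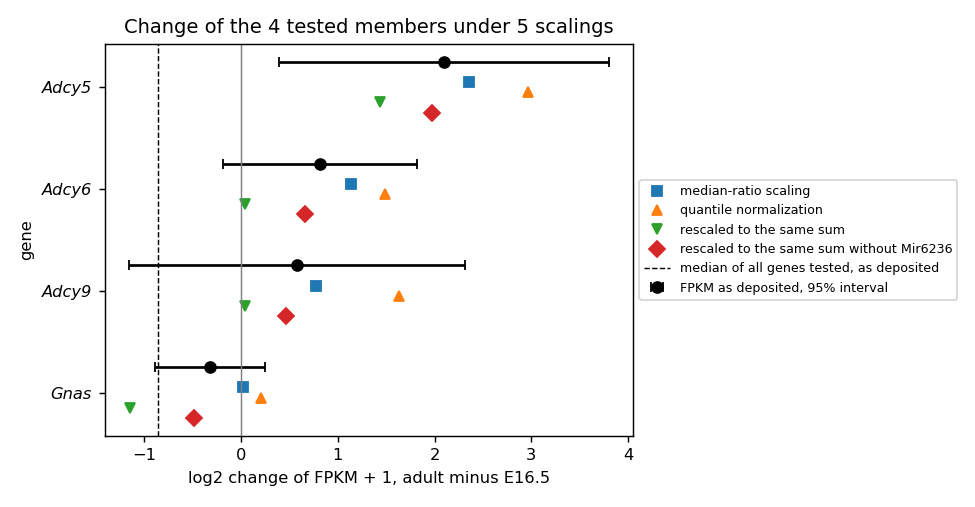
Log2 change (adult minus E16.5) of the 4 tested members, with the 95% limma interval for the FPKM as deposited (black) and the changes under 4 other scalings between samples (colors). The Adcy5 points stay to the right of 0, between 1.43 and 2.97, while those of Gnas lie on both sides of 0, between -1.15 and 0.21.

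Shares within a sample do not depend on the scaling between samples, and they are given here without a test. The summed FPKM of the 9 cyclases was 29.7, 42.5 and 59.0 in adults, and 20.4, 22.3 and 17.3 at E16.5. This sum, unlike the shares, depends on that scaling. Adcy5 and Adcy6 together held 95.9%, 85.7% and 88.0% of it in adults and 73.7%, 86.1% and 61.0% at E16.5, with overlap. The calcium-inhibited pair was thus the larger part of the cyclase transcripts in every sample.

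Adcy6 alone held 66.9%, 62.3% and 32.9% in adults and 65.0%, 63.5% and 51.3% at E16.5. Adcy5 held 29.0%, 23.4% and 55.1% in adults and 8.74%, 22.6% and 9.68% at E16.5. Its shares did not overlap, although adult replicate 2 and E16.5 replicate 2 were close. In adult replicate 3, and in no other sample, Adcy5 exceeded Adcy6, with a ratio of 1.68 against 0.376 and 0.434 in the other adult samples and 0.135 to 0.356 at E16.5.

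The calmodulin-stimulated class (Adcy1, Adcy3 and Adcy8) held 1.64%, 1.85% and 0% in adults and 18.7%, 4.44% and 4.58% at E16.5. The ages did not overlap, and E16.5 replicate 1, with the high neuronal markers, was the highest. These genes lay below the filter and were at 0 to 83 read equivalents each in the shallower adult libraries, which limits this comparison. The G beta-gamma-enhanced class (Adcy2, Adcy4 and Adcy7) held 0%, 4.07% and 0% in adults and 0.272%, 0.579% and 25.3% at E16.5, the last almost wholly Adcy2. Adcy9 held 2.44% to 12.0% in adults and 7.30% to 9.13% at E16.5.

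Gnas transcripts outnumbered those of the cyclases per length in every sample, and by less in adults. The ratio of Gnas to the summed cyclases was 30.6, 26.9 and 12.8 in adults, and 64.5, 51.5 and 58.4 at E16.5, without overlap. Against the G beta subunits Gnb1 and Gnb2, the partners of Gsα in the resting trimer, the ratio of Gnas was 4.72, 7.61 and 5.47 in adults and 3.41, 2.69 and 3.47 at E16.5, again without overlap but in the other direction. The ratio of Gnas to the summed inhibitory subunits Gnai1, Gnai2 and Gnai3 overlapped, at 3.75 to 9.57 in adults and 4.84 to 5.46 at E16.5.

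**Figure D3:**
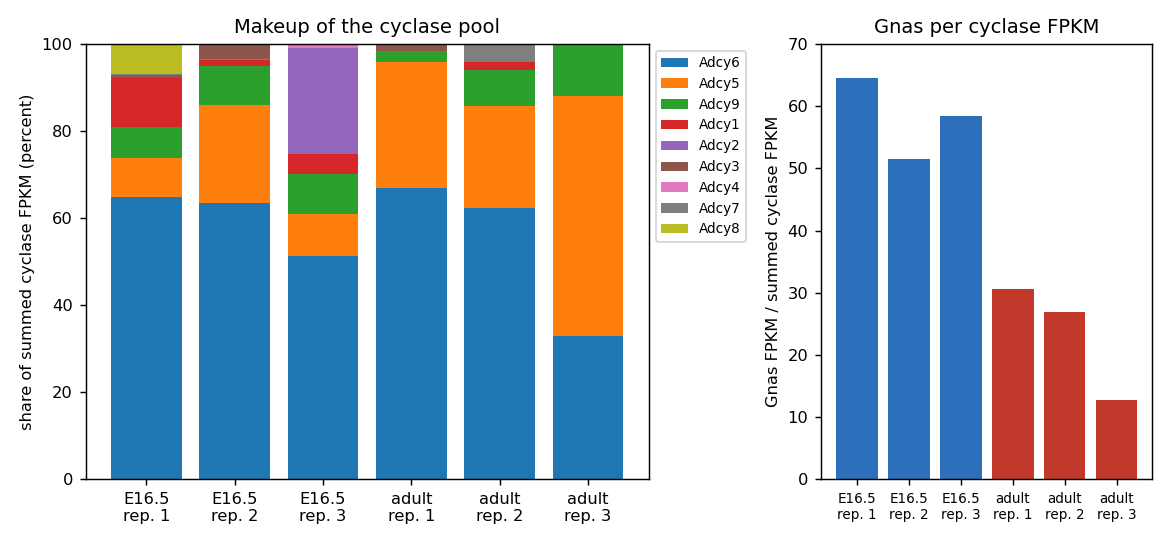
Left, share of each cyclase in the summed cyclase FPKM of a sample (percent), stacked; right, ratio of Gnas FPKM to the summed cyclase FPKM, per sample, with E16.5 in blue and adult in red. Adcy6 and Adcy5 fill most of every bar, and the 3 adult ratios, 12.8 to 30.6, lie below the 3 E16.5 ratios, 51.5 to 64.5.

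Other genes of the cAMP pathway were taken from lists of 136 symbols, of which 135 were in the table and 70 passed the filter. Of these, 1 was called higher in adults (1.43%) and 15 higher at E16.5 (21.4%), where 2.12% and 8.83% of all genes tested were called, with a median change of -0.83 against -0.86 over all genes tested. Without adjustment 2 and 21 of the 70 had a p under 0.05, where all genes tested gave 5.34% and 25.9%. The counts of single lists that follow stand beside the same shares. Of the 70, 6 were listed at 0 in every adult sample and 1 in every E16.5 sample, and such genes passed the filter through a single age. The 15 calls at E16.5 include Akap14, Gnb4, Gng11 and Pth1r among those 6. Akap6, Akap12, Pkia, Prkar1b, Prkar2b and Calcrl, also called, had adult means of 0.0119 to 0.277 FPKM and likewise passed through E16.5. The share of 21.4% thus rests in part on genes that were tested because of their E16.5 level.

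Receptors that couple to Gs were mostly listed at 0. Of 45 listed, 31 were at 0 in all 6 samples and 6 were tested, of which 1 was higher in adults and 2 at E16.5. Crhr2, a receptor for urocortins of the corticotropin-releasing hormone family, was the receptor with the highest mean. Its level was 9.62, 23.7 and 9.39 FPKM in adults and 0, 1.62 and 0.326 FPKM at E16.5, without overlap. It rose by 3.20 on the log2 scale (SE 0.72, adjusted p = 0.0346, limma), a call lost when adult replicate 1 or any single E16.5 replicate was left out (adjusted p 0.0661 to 0.132). With a mean of 14.2 FPKM in adults and 0.650 FPKM at E16.5, Crhr2 passed the filter through its adult level. This call thus also rests on a gene that was tested because of the age where it is high. Pth1r, the parathyroid hormone receptor, was listed at 0 in the adult samples and was at 11.6, 9.38 and 8.56 FPKM at E16.5 (adjusted p = 0.0159, limma). Calcrl, which forms receptors for calcitonin gene-related peptide and adrenomedullin, fell from 14.9, 7.47 and 3.48 FPKM at E16.5 to 0.507, 0.323 and 0 FPKM in adults (-2.75, adjusted p = 0.0469, limma). The Calcrl call was lost on leaving out any 1 of the 6 replicates (adjusted p 0.0596 to 0.116, limma). Of the 3 receptor activity-modifying proteins, which escort such receptors to the membrane, only Ramp2 was tested, and it was not called (adjusted p = 0.834, limma).

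G protein subunits other than Gsα were of 2 kinds. Of 6 inhibitory and Golf alpha subunits, which oppose cyclase activation by Gsα or replace Gsα, 0 were called in either direction (median -0.46). Gnai2, the highest, was at 92.9, 81.9 and 120 FPKM in adults and 177, 146 and 138 FPKM at E16.5, without overlap (-0.65, adjusted p = 0.153, limma). Of 12 tested G beta and gamma subunits, 0 were higher in adults and 3 at E16.5. Gnb1, the highest, was at 98.8 to 124 FPKM in adults and 175 to 232 FPKM at E16.5 (-0.77, adjusted p = 0.0897, limma). Gnb2 fell by 1.92 on the log2 scale (69.1, 51.4 and 23.5 against 212, 195 and 115 FPKM, adjusted p = 0.0400, limma). Gnb4 and Gng11 were listed at 0 in the adult samples, with 4.59 to 9.19 and 2.01 to 9.74 FPKM at E16.5 (adjusted p = 0.0273 and 0.0468, limma). The Gnb2 call was lost without adult replicate 2 or any E16.5 replicate (adjusted p 0.0596 to 0.146), that of Gnb4 without adult replicate 1 (0.0632) and that of Gng11 on leaving out any 1 replicate other than E16.5 replicate 1 (0.0620 to 0.102). The chaperone gene Ric8b, whose product folds Gsα, was not called (adjusted p = 0.721, limma).

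Calmodulin is the calcium sensor that stimulates Adcy1, Adcy3 and Adcy8. Calm3, the calmodulin gene with the highest mean, was at 235, 301 and 229 FPKM in adults and 785, 815 and 696 FPKM at E16.5, without overlap, and fell by 1.59 (SE 0.23, adjusted p = 0.00930, limma). Calm2 was at 82.9, 175 and 123 FPKM in adults and 775, 635 and 685 FPKM at E16.5, and fell by 2.51 (adjusted p = 0.00634, limma). The Calm2 call held under all 17 alternatives, and that of Calm3 was lost in 1, limma without a trend (adjusted p = 0.0561).

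Downstream of cAMP, PKA is a tetramer of regulatory and catalytic subunits held near its targets by A-kinase anchoring proteins. Of 8 tested PKA subunits and inhibitors, 0 were higher in adults and 3 at E16.5. The regulatory subunit gene Prkar2b was at 0, 0.0357 and 0 FPKM in adults and 8.36, 23.5 and 17.5 FPKM at E16.5 (adjusted p = 0.0145, limma), the PKA inhibitor Pkia at 0 to 0.0733 against 5.55 to 17.4 FPKM (-3.63, adjusted p = 0.0219) and the regulatory subunit gene Prkar1b at 0 to 0.743 against 3.98 to 8.01 FPKM (-2.43, adjusted p = 0.0469). The Pkia call was lost without adult replicate 1 or E16.5 replicate 1 or 3 (adjusted p 0.0511 to 0.0552, limma), and that of Prkar1b on leaving out any 1 replicate other than adult replicate 2 (0.0636 to 0.101). Prkar1a, the highest, was not called, with 121, 53.6 and 14.2 FPKM in adults and 110 to 120 FPKM at E16.5 (adjusted p = 0.234, limma). The adult samples of Prkar1a spread widely, with replicate 3 the lowest.

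Of 12 tested anchoring proteins, 0 were higher in adults and 4 at E16.5. Akap14, which is linked to cilia, was listed at 0 in the adult samples and was at 16.5, 19.4 and 11.6 FPKM at E16.5 (adjusted p = 0.0108, limma). The 4 motile cilia markers all had every adult value below every E16.5 value, with sums of 134 to 323 FPKM in adults and 592 to 806 FPKM at E16.5, and their part in the Akap14 level was not tested. Akap6 was at 0 to 0.0507 FPKM in adults and 5.87 to 12.7 FPKM at E16.5 (-3.28, adjusted p = 0.0216, limma). Akap12 was at 0 to 0.0373 against 2.47 to 10.6 FPKM (-2.81, adjusted p = 0.0411, limma). Akap8 was at 5.38 to 11.6 against 33.2 to 42.2 FPKM (-1.96, adjusted p = 0.0359, limma). The Akap6 call was lost without adult replicate 1 (adjusted p = 0.0517, limma), the Akap12 call on leaving out any 1 replicate other than E16.5 replicate 2 (0.0527 to 0.0884), and the Akap8 call without adult replicate 1 or any E16.5 replicate (0.0619 to 0.122). Akap9, a centrosomal and Golgi anchor and the highest of the list, was not called, with 41.4 to 60.3 FPKM in adults and 30.9 to 49.9 FPKM at E16.5.

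The remaining arms had no call. None of 10 tested phosphodiesterases, 3 other effectors and 8 CREB family genes and coactivators passed an adjusted p of 0.05 with limma, and 1 of these genes, Pde7a (-2.15, adjusted p = 0.0671), had an unadjusted p under 0.05. Their median changes were -0.16, 0.99 and 0.31. Pde4a, the phosphodiesterase with the highest mean, was at 3.56, 11.5 and 7.62 FPKM in adults and 3.10, 1.94 and 1.91 FPKM at E16.5, all adult values above (1.27, adjusted p = 0.231, limma). Rapgef4, which encodes the cAMP-gated exchange factor Epac2, was at 9.88, 9.39 and 1.84 FPKM in adults and 0.308, 1.62 and 3.60 FPKM at E16.5, with overlap. Crebbp, the CREB coactivator and acetyltransferase, was at 41.9 to 49.3 FPKM in adults and 28.7 to 42.9 FPKM at E16.5 and overlapped as well.

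**Figure D4:**
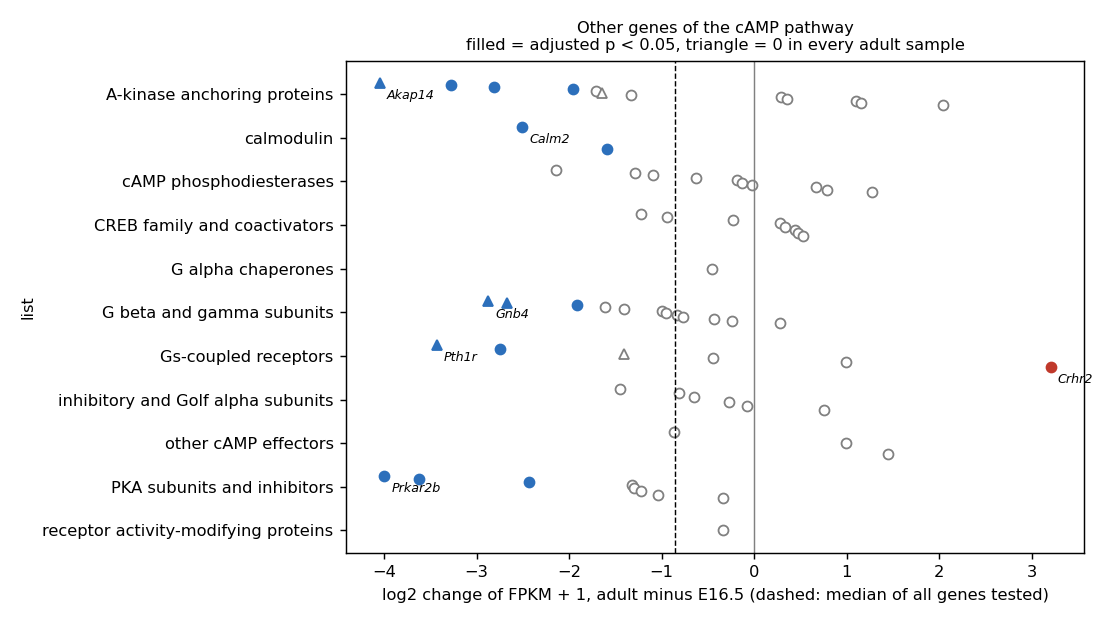
Log2 change (adult minus E16.5) of the tested genes of the cAMP pathway lists, a row per list, without 1 gene that is not reported here; filled symbols passed an adjusted p of 0.05 with limma (red higher in adults, blue higher at E16.5), triangles were listed at 0 in every adult sample, and the dashed line is the median of all genes tested, -0.86. The genes called higher at E16.5 lie in the receptor, G beta and gamma, calmodulin, PKA and anchoring protein rows, and Crhr2 is the sole filled red point.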

How the data were processed

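Ribosome-bound RNA of 3 adult and 3 E16.5 ChP samples was analysed, grouped by the age in the labels. The deposited FPKM values came from Cuffquant (Cufflinks), run by the authors on single-end reads that STAR had placed on mm10. The annotation used is not given in the sources used here. FPKM were used as deposited, on log2(FPKM + 1) with a pseudocount of 1, keeping genes whose 6-sample mean exceeded 1. Adult minus E16.5 was tested with limma 3.58.1 in R 4.3.3 (intensity trend, no covariates), with Benjamini-Hochberg adjustment over all 11601 genes and a threshold of 0.05. The test was tried on simulated data. Exact permutation tests were run for each member. The members and gene lists were chosen with earlier results of these data known. All members were named, and of each list the called genes, at most 4 in each direction, and the gene with the highest mean. No member was called, so that no genes of similar pattern were named. Some genes that the rule takes are not reported here.

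The depth of a library was estimated from the spacing of low FPKM values, at which single reads are visible, in 2523 single-transcript genes at the transcript length minus 200 bases. Of 43 to 66 low values per library, 63.6% to 81.2% came to a whole number of reads within 0.1 (20% by chance), and one read per kilobase was worth 0.114 to 0.324 FPKM in adults and 0.0636 to 0.0808 FPKM at E16.5. Read equivalents are estimates for the longest transcript, and cover counting error only. Coordinates are from GENCODE M21, and promoter windows from RefSeq.

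Alternatives were other pseudocounts, filters, scalings, thresholds, a model without a trend, a replicate block and leaving out each replicate. Rescaling without Mir6236 and the counts of members without overlap were added after the data were seen.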

Additional observations from a re-analysis of the deposited data

How the results depend on the processing

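Adcy5 stayed higher in adults in 17 of 17 alternatives (1.43 to 2.97, adjusted p 0.0506 to 0.280) and was never called, and Adcy6 (0.040 to 1.48) and Adcy9 (0.038 to 1.64) likewise. The Gnas change turned to 0.023 with median-ratio scaling and to 0.21 with quantile normalization, and was -1.15 with samples rescaled to the same sum, where 1 member was called higher at E16.5, 0 had every adult value above and 1 below. Rescaled without Mir6236, the Gnas change was -0.48 (adjusted p = 0.192, limma), no member was called, and 1 member was below. Leaving out replicates gave 0 to 1 member below (Gnas, without adult replicate 2 or E16.5 replicate 3) and 2 to 3 above (Adcy9 joined without adult replicate 1). With quantile normalization 3 were above. The cause was not tested.

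The single pathway call in adults fell to 0 with pseudocounts of 0.1 and 0.01, no filter, only genes above 0 in every sample, the replicate block and a threshold of 0.01, and to between 0 and 1 on leaving out replicates. The 15 calls at E16.5 became 6 with genes above 0 in every sample, 8 with median-ratio scaling, 5 with quantile normalization, 5 with the replicate block, 2 at 0.01, 10 with no filter, 22 rescaled to the same sum, and between 6 and 12 on leaving out replicates. With genes above 0 in every sample, Crhr2 was not tested, being at 0 in E16.5 replicate 1. Akap6, Akap12, Akap14, Gnb4, Gng11, Pth1r, Calcrl, Prkar1b, Pkia and Prkar2b, each at 0 in an adult sample, were not tested there either. Their loss under that filter is therefore not a test result.

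Of all genes tested, the share called higher in adults was 2.12%, and 4.13% with genes above 0 in every sample, 1.03% rescaled to the same sum, 4.02% with quantile normalization, 1.36% without a trend, 0.965% with the replicate block and 0.483% at 0.01, and 0.776% to 2.91% on leaving out replicates. The share higher at E16.5 was 8.83%, and 5.43% without a filter, 5.69% with median-ratio scaling, 27.9% rescaled to the same sum, 3.87% with quantile normalization, 3.9% with the block and 1.14% at 0.01, and 3.01% to 14.7% on leaving out replicates (highest without adult replicate 2 and lowest without E16.5 replicate 2). Of the calls, the part that was higher in adults was 19.4%, and 37.5% with genes above 0 in every sample, 34.5% with median-ratio scaling, 50.9% with quantile normalization, 3.54% rescaled to the same sum and 29.8% at 0.01.

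The replicate numbers gave little sign of pairing the samples. For this, the mean of each gene at its age was subtracted from log2(FPKM + 1), and the remainders were correlated between adult and E16.5 samples. Same-numbered samples gave 0.000895, 0.0439 and 0.0150, and differently numbered samples -0.0292 to 0.0135. With the replicate block, 112 genes were called higher in adults and 452 at E16.5, and 0 members. The shallower adult libraries limit what can be said of cyclases listed at 0 there.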
